A study of Nasonia vitripennis with 140 samples.

Results

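Female day 7 larvae of the parasitoid wasp Nasonia vitripennis were compared with female embryos across all annotated genes, using the animals that carried the control double-stranded RNA (dsRNA) against GFP, a jellyfish gene that the wasp lacks. The comparison rests on 10 of the 140 libraries of the series, 5 of day 7 larvae and 5 of day 1 embryos, chosen by their labels and not by any measured value. The series as a whole followed RNA interference of doublesex in both sexes from the embryo to the adult. All animals were of the AsymCX strain, reared on Calliphora blowfly hosts at 25 °C.

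Larvae were injected at day 4 with GFP dsRNA at 4 µg/µl, returned to a host and collected 3 days later, with 3 individuals in each sample. Embryos were collected at day 1 as pools of 100, and were never injected: they were the offspring of mothers that had received the GFP dsRNA as pupae at day 8 and were mated with uninjected males. A mated Nasonia mother lays fertilised eggs, which become daughters, and unfertilised eggs, which become sons, and per the labels these embryo pools were 90 to 95% female. Stage, own injection, pool size and a small share of males therefore differ together between the groups and cannot be told apart. The labels do not say that the 5 samples of a group came from separate cultures, so each p-value measures the spread between these samples, which may be technical.

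At day 1 a Nasonia embryo is inside the egg, where gap and pair-rule genes lay out the segments before the epidermis secretes the first cuticle. At day 7 the larva sits on the blowfly pupa and feeds. It grows in steps separated by moults, each of which needs a new cuticle, and it stores protein and fat for metamorphosis. Since whole animals were sequenced, fewer cells of a type and less RNA per cell cannot be told apart for any gene below.

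Paired reads of 150 bp gave 64442654 to 88507137 assigned counts per larval library and 65581211 to 76264236 per embryo library. Counts were more concentrated in larvae: the 10 most abundant genes took 18.3 to 21.2% of a larval library and 7.70 to 9.12% of an embryo library. The first principal component held 85.2% of the variance and separated larvae from embryos, and the next 2 components spread the embryos. Embryos 1 and 2 lay at opposite ends of the second component, and embryo 3 stood apart on the third. Larval libraries deviated from their group by 0.258 to 0.366 log2 units (root mean square over genes), and embryos by 0.366 to 0.757. Embryo 3 stood far above the other 4 embryos in 477 of 9837 genes and larva 5 far above the other larvae in 271 of 9766, so fold changes of the genes named below are also given without 1 of these libraries where that moved them by over 1.5 times or took the call away.

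Of 15471 annotated genes, 11526 had enough counts to be tested, and 8851 of them (76.8%) differed between day 7 larvae and embryos at an adjusted p of at most 0.05 (edgeR's quasi-likelihood test with Benjamini-Hochberg adjustment). Higher in larvae were 4293 genes (37.2% of those tested) and lower were 4558 (39.5%), with a median log2 fold change over all tested genes of -0.04. Changes of at least 2-fold covered 2480 genes higher (21.5%) and 3005 lower (26.1%), and changes of at least 8-fold covered 728 higher (6.32%) and 857 lower (7.44%). The 5 larval and the 5 embryo libraries did not overlap at all in 7643 genes (66.3%). With more than 3 in 4 genes called, the counts for each gene group below have to be read against these shares.

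**Figure D1:**
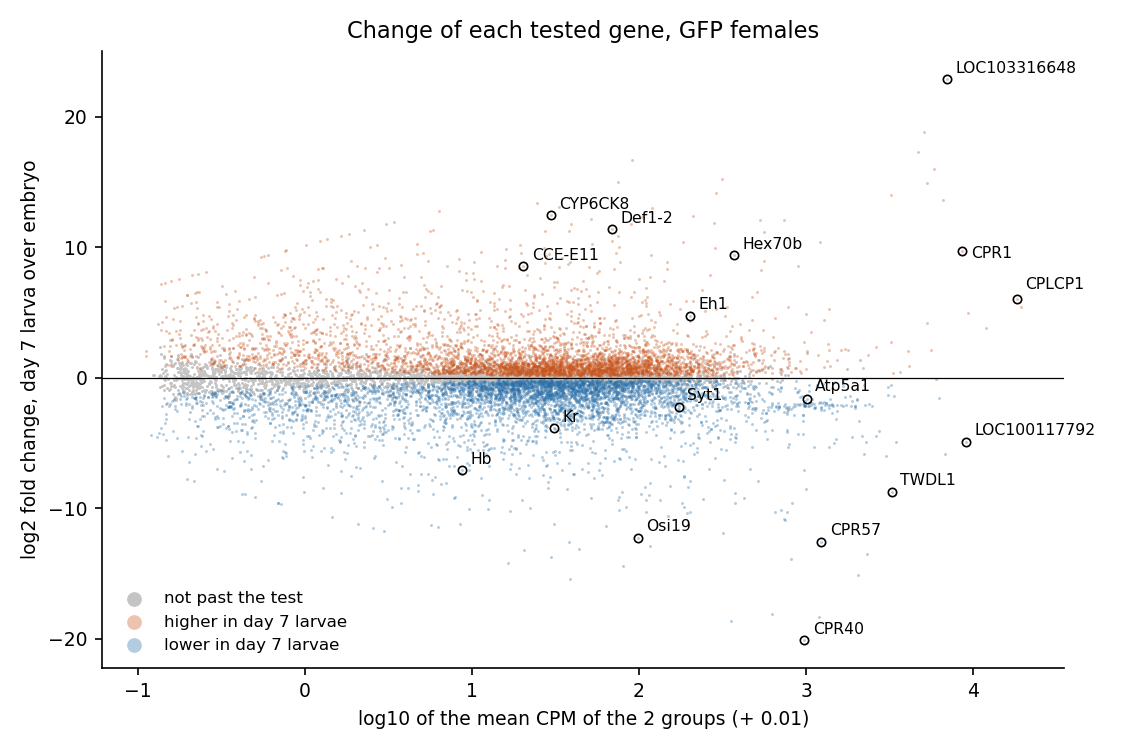
Log2 fold change of day 7 larvae over embryos (y axis) against the mean level over both groups (x axis, log10 of the counts per 1000000, CPM, plus 0.01) for the 11526 tested genes in GFP control females. Genes called higher in larvae are 4293 and genes called lower are 4558, and the labelled genes are described in the text.

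Most genes were expressed at both stages, and the change was mainly one of amount. A level of at least 1 CPM (counts per 1000000, scaled for library composition) was reached by 9766 genes in larvae and 9928 in embryos, and 9174 genes reached it in both. Genes under 0.1 CPM in embryos but at 10 CPM or more in larvae numbered 47, and 45 genes were the other way round, or 42 without embryo 3. LOC103316648, a gene without a descriptive name, had 14871, 13726, 14525, 14277 and 11985 CPM in larvae 1 to 5 and no count in any embryo library. It alone took 1.41% ± 0.150 of larval counts (SD, n = 5) and was at least 1603410-fold higher in larvae, with the embryos set to 3 counts over the group. LOC100379126 had 160.5 to 211 CPM in larvae and likewise no count in embryos, a difference of at least 21245-fold. In the opposite direction CPR40, which encodes a cuticle protein with the chitin-binding Rebers-Riddiford domain, had no count in any larval library, against 1318, 2778, 2016, 1590 and 2067 CPM in embryos 1 to 5. It was at least 240766-fold lower in larvae.

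Structural cuticle proteins were among the largest gains and the largest losses of the whole comparison. Insect cuticle is a fabric of chitin fibres and binding proteins, and the set of proteins used differs between body regions and between moults. Of the 35 genes of the CPR family (Rebers-Riddiford proteins), 33 were tested, of which 8 were higher and 20 lower in larvae. The median log2 fold change was -3.95, and 22 were without overlap between the groups. Over all tested genes 37.2% were higher, 39.5% lower and 66.3% without overlap, so the last count was near the share of all genes. CPR1 had 16111, 16144, 18267, 19644 and 15869 CPM in larvae, against 7.26, 41.9, 18.8, 18.6 and 17.1 CPM in embryos. The groups lay far apart, and the log2 fold change was 9.70 (SE 0.53, adjusted p = 5.92e-08). CPR39, like CPR40, was an embryo gene: 1 count was found in all 5 larval libraries together, in larva 5, against 666 to 1564 CPM in embryos (log2 fold change -18.11, and -19.47 without larva 5, fitted values that depend on the small count added to 0).

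Summed over the family, the CPR genes held 22741 to 34281 CPM in larvae and 11078 to 19628 CPM in embryos. The total was thus higher in larvae although more members were lower. CPR1 alone held 15869 to 19644 CPM of the larval sums, so the higher total rested largely on this gene. CPR14 had 385, 700.0, 219, 623 and 3656 CPM in larvae, with larva 5 far above the rest, and 0.886 to 3.29 CPM in embryos. The groups did not overlap, and the log2 fold change was 8.93 (SE 1.00, adjusted p = 1.25e-05), against 7.71 without larva 5 (adjusted p = 1.33e-06).

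The low-complexity cuticle proteins gained the largest share of the library. CPLCP1 and CPLCP2 belong to a family rich in proline and glycine that is known from insect cuticles. CPLCP1 had 28261, 40744, 41752, 29234 and 40082 CPM in larvae, against 1060, 171, 674, 220.3 and 660.3 CPM in embryos. CPLCP2 took 3.79% ± 0.452 of all counts in larvae and 0.0882% ± 0.0409 in embryos (SD, n = 5 each), and CPLCP1 took 3.63% ± 0.595 in larvae and 0.0554% ± 0.0360 in embryos. Their log2 fold changes were 6.01 for CPLCP1 (SE 0.56) and 5.40 for CPLCP2 (SE 0.39), and 2 libraries, larvae 1 and 4, were the lowest larvae for both genes. Of the 14 cuticle genes outside the CPR family, 6 were higher and 4 lower (all tested genes: 37.2% higher and 39.5% lower). Their median was -0.29, but their summed level was 60975 to 86900 CPM in larvae, against 2299 to 23895 CPM in embryos.

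The lower members of that group included TWDL1, a Tweedle protein, from a family that shapes larval body form in Drosophila, and Cpap3-e, a secreted protein with chitin-binding domains. TWDL1 had 6.31, 10.4, 5.00, 5.11 and 49.7 CPM in larvae and 16444, 351, 7776, 1962 and 5992 CPM in embryos. Embryo 1 was highest and embryo 2 lowest, and even the lowest embryo was above the highest larva (log2 fold change -8.73, SE 1.32, adjusted p = 0.000126). Without larva 5 it was -9.94 and without embryo 1 it was -8.04, and it kept its call both times. Cpap3-e was steadier, with 13.2 to 14.2 CPM in larvae and 288 to 1026 CPM in embryos.

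The 3 genes of the Osiris family, a cluster of insect membrane proteins that in Drosophila is expressed in cuticle-secreting epidermis, varied in the same way as TWDL1 among the embryos. Osi19 had 0, 0, 0.0155, 0.0144 and 0.171 CPM in larvae and 654, 3.16, 249.7, 30.5 and 46.5 CPM in embryos (log2 fold change -12.27, SE 1.84, adjusted p = 0.000121), and its fold change was -14.54 without larva 5 and -11.03 without embryo 1. Osi7 had its highest larval value in larva 5 (2.52 CPM), above the 0.963 CPM of embryo 2, and a log2 fold change of -7.21, or -8.88 without larva 5 and -6.02 without embryo 1. All 3 were called lower, against 39.5% of all tested genes, but the call of Osi8 (log2 fold change -4.37) was not steady. It was lost when any one of larvae 1 to 4 was left out (adjusted p = 0.0552 to 0.0609), without embryo 1 (-3.04, adjusted p = 0.0776) and without embryos 1 to 3 (adjusted p = 0.230), and stood at -6.44 (adjusted p = 0.00782) without larva 5. Embryos 1 and 3 were the highest and embryo 2 the lowest for Osi19, Osi7, Osi8 and TWDL1 alike.

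**Figure D2:**
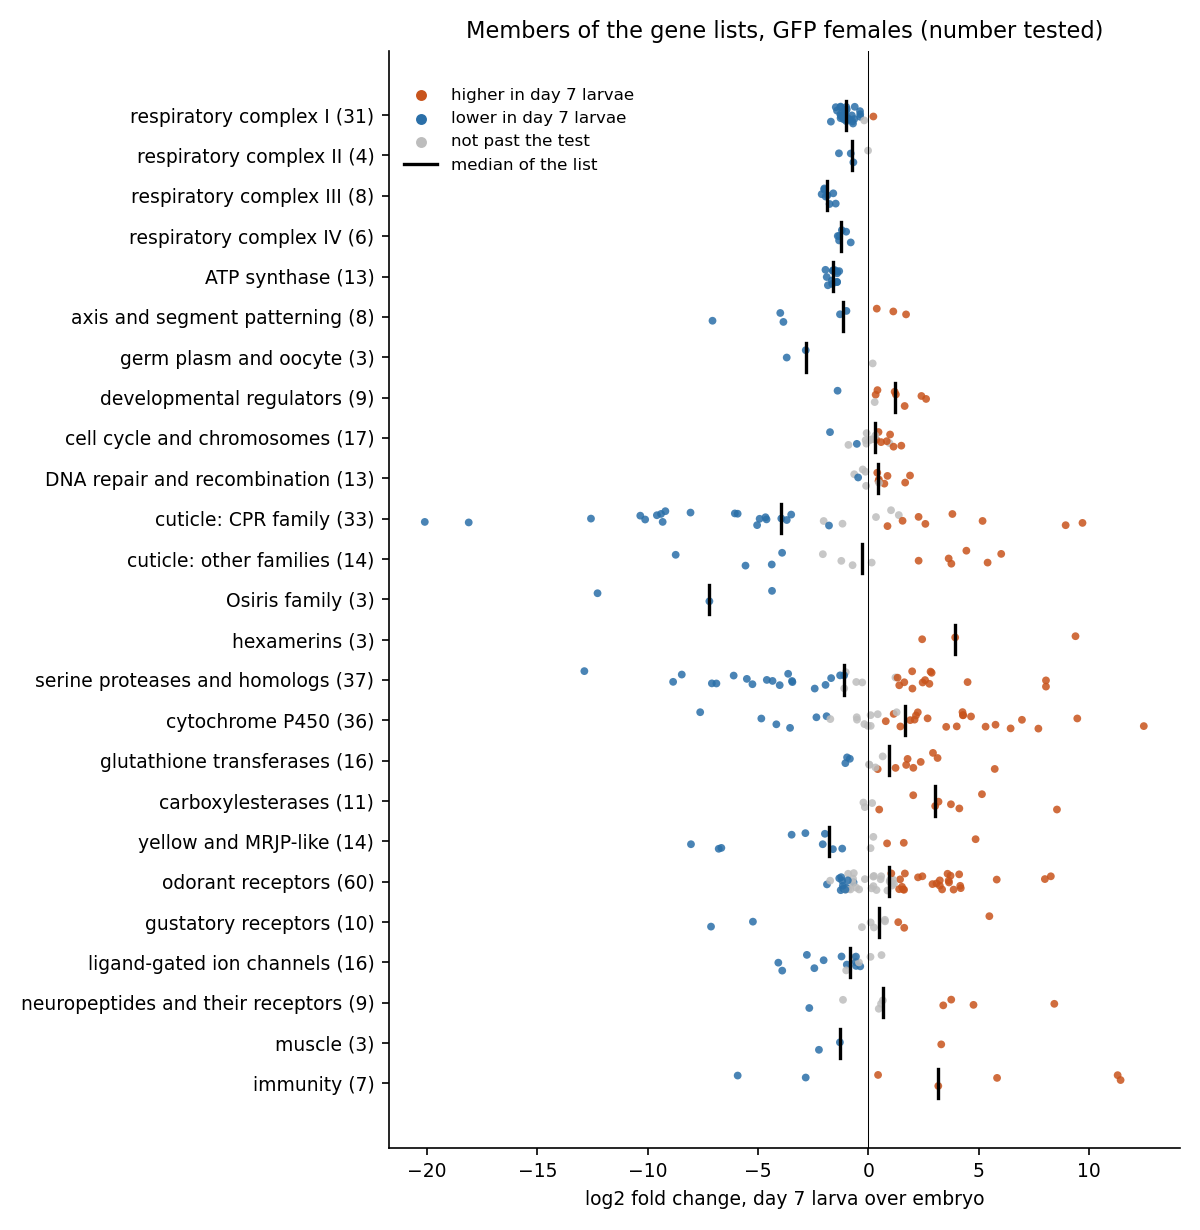
Log2 fold change of day 7 larvae over embryos for each tested member of 25 gene lists (1 point a gene) with the list's median. The subunits of respiratory complexes III and IV and of ATP synthase all lie below 0, the 3 hexamerins all lie above it, and the CPR family spans both directions.

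Larval serum protein genes were higher at day 7. Hexamerins are haemolymph proteins of the arylphorin type that insect larvae store as a source of amino acids for metamorphosis. All 3 hexamerin genes were called higher, against 37.2% of all tested genes. Their summed level was 714 to 879 CPM in larvae and 2.72 to 3.52 CPM in embryos. Hex70b made up nearly all of it, with 711, 684, 717, 858 and 736 CPM in larvae, against 1.34, 1.03, 1.26, 0.664 and 1.25 CPM in embryos. Its log2 fold change was 9.38 (SE 0.24, adjusted p = 1.39e-09) and the groups lay far apart. Hex109 had 20.1 ± 4.43 CPM in larvae and 1.32 ± 0.301 CPM in embryos, and Hex83 had 3.93 ± 1.13 CPM in larvae and 0.726 ± 0.0704 CPM in embryos (SD, n = 5 each).

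**Figure D3:**
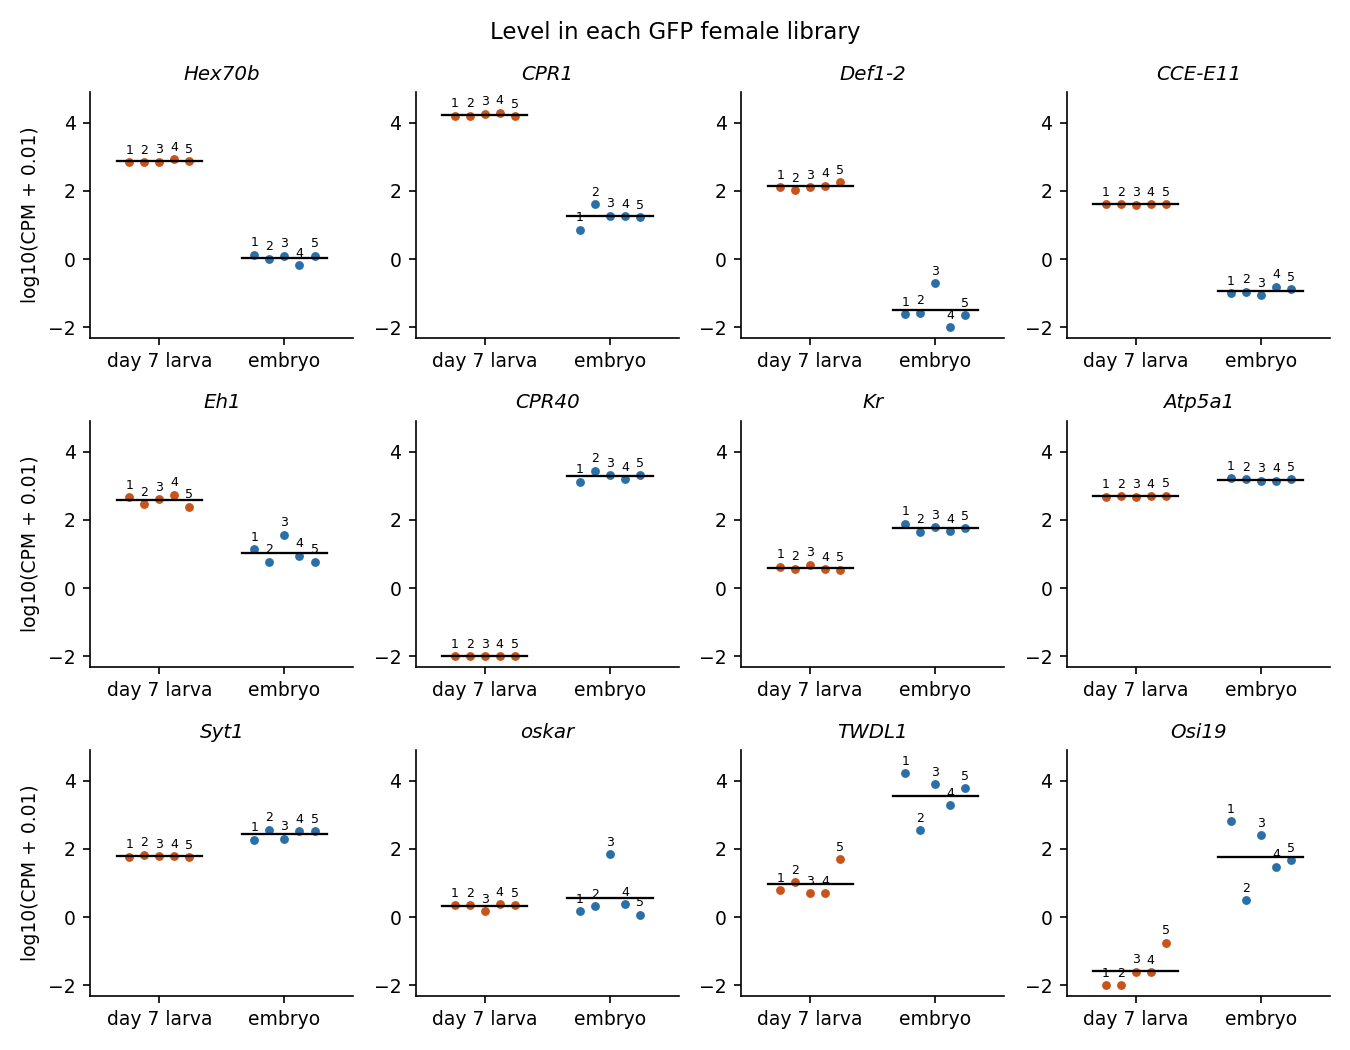
Levels of 12 genes in each of the 5 day 7 larval libraries and the 5 embryo libraries (log10 of CPM plus 0.01, points numbered by replicate, line at the mean of the log values). Hex70b, CPR1, Def1-2 and CCE-E11 are high in every larva, CPR40 and Kr are high in every embryo, and oskar is high only in embryo 3 among the 10 libraries.

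Segmentation genes fell into those that were higher and those that were lower. Gap genes such as hunchback (Hb), Krüppel (Kr) and giant (Gt) divide the embryo into broad domains, pair-rule genes such as even-skipped (Eve) and hairy set the segments, and patched (Ptc), the Hedgehog receptor, and Sex combs reduced (Scr), a Hox gene, act into later stages in Drosophila. Of 8 such genes 5 were lower and 3 higher (all tested genes: 39.5% lower and 37.2% higher). Kr had 4.25, 3.76, 4.92, 3.67 and 3.49 CPM in larvae and 77.6, 45.1, 62.3, 46.5 and 58.6 CPM in embryos, and did not overlap (log2 fold change -3.85, SE 0.18, adjusted p = 1.95e-08). Eve had 0.535 to 1.26 CPM in larvae and 9.48 to 18.8 CPM in embryos. Hb had 0.117, 0.0668, 0.171, 0.173 and 0.114 CPM in larvae and 13.8, 7.94, 43.0, 10.1 and 11.5 CPM in embryos, where embryo 3 was far above the other 4. The log2 fold change of Hb was -7.06 (SE 0.61, adjusted p = 1.58e-06), and -6.39 without embryo 3 (adjusted p = 5.53e-08). Caudal (Cad) at -1.29 and Gt at -1.0 were called lower too, and for both genes embryo 3 again held the highest value. Without embryo 3 they stood at -0.59 for Cad (adjusted p = 0.0126) and -0.40 for Gt (adjusted p = 0.0169). The call of Cad was lost without larva 4 (adjusted p = 0.0562) and with the replicate number as a block (adjusted p = 0.0508). The call of Gt was lost when any one of the 5 larvae was left out (adjusted p = 0.0583 to 0.0780), with the block (adjusted p = 0.0522) and without embryos 1 to 3 (adjusted p = 0.0646).

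The 3 genes higher in larvae were Ptc at a log2 fold change of 1.70 (98.5 to 119 CPM in larvae, 25.0 to 49.0 CPM in embryos), Scr at 1.13 (46.9 to 54.3 CPM in larvae, 16.9 to 28.5 CPM in embryos) and hairy at 0.38, whose libraries overlapped. The median of the 8 genes was -1.14 with all libraries and -0.50 without embryo 3. Without larva 4 only 3 of them were called lower.

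Germ-line RNAs showed how much a single pool could weigh. Oskar organises the germ plasm from which Nasonia pole cells form, and nanos is a translational repressor of germ cells and of the posterior in Drosophila. Oskar had 2.24, 2.29, 1.48, 2.41 and 2.21 CPM in larvae and 1.5, 2.11, 68.9, 2.42 and 1.17 CPM in embryos. Only embryo 3 was high, the groups otherwise overlapped, and the log2 fold change of -2.84 (SE 1.17, adjusted p = 0.0463) became 0.24 (adjusted p = 0.390) without embryo 3. Its call was also lost when any one of the 5 larvae was left out (adjusted p = 0.0793 to 0.0903). An exact two-sided permutation test of the 5 and 5 libraries gave p = 0.841. Nanos had 0.450 to 0.670 CPM in larvae and 2.14, 3.38, 26.6, 1.92 and 2.27 CPM in embryos, which did not overlap with larvae even without embryo 3. The log2 fold change of nanos was -3.70 with embryo 3 and -2.12 without it (adjusted p = 1.90e-05). DESeq2 gave no adjusted p for nanos or oskar with all libraries. The B-type cyclin cycB had 32.3 to 37.3 CPM in larvae and 247 CPM in embryo 3, against 16.9 to 20.7 CPM in the other embryos. In the adult female abdomen, where eggs are made, oskar averaged 352 CPM, nanos 132 CPM and Hb 190 CPM. The part of such maternal RNA in embryo 3 was not tested.

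Of 9 other developmental regulators, 7 were called higher and 1 lower in larvae, with a median of 1.19. Over all tested genes 37.2% were higher and 39.5% lower. Extramacrochaetae (Emc), an inhibitor of basic helix-loop-helix factors, had 158, 159, 162, 153 and 109 CPM in larvae and 31.9, 29.8, 25.3, 23.6 and 29.8 CPM in embryos (log2 fold change 2.40, SE 0.13). Larva 5 was the lowest larva and still exceeded every embryo. Admp, a ligand of the BMP family, had 7.19 to 14 CPM in larvae and 0.519 to 2.95 CPM in embryos.

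Genes of the cell cycle were only in part different. Of 17 tested, 7 were higher and 2 lower with all libraries, where 37.2% of all tested genes were higher and 39.5% lower. The number higher was thus near the share of all genes. Without embryo 3, 11 were higher and 2 lower. The median was 0.31 with embryo 3 and 0.61 without it. Cdk4, a kinase that drives growing cells into the cycle, had 107 to 131 CPM in larvae and 20.5 to 74.4 CPM in embryos (log2 fold change 1.49, SE 0.31). Cenp-a, the histone of centromeres, had 24.0, 25.2, 22.4, 24.6 and 24.3 CPM in larvae and 92.9, 86.6, 69.5, 77.7 and 76.1 CPM in embryos (log2 fold change -1.74, SE 0.09). Of the 13 tested genes of DNA repair, 7 were higher: Mus201, a nuclease of excision repair, stood at 0.86, with 21.0 to 23.5 CPM in larvae and 10.7 to 15.8 CPM in embryos.

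Subunits of the respiratory chain mostly moved in the same direction. The chain passes electrons through complexes I to IV of the inner mitochondrial membrane, and ATP synthase (complex V) uses the proton gradient they build. Lower in larvae were 29 of 31 subunits of complex I (median log2 fold change -1.02), 3 of 4 of complex II (-0.74), 8 of 8 of complex III (-1.90), 6 of 6 tested of complex IV (-1.26) and 13 of 13 of ATP synthase (-1.60). Across all tested genes 39.5% were lower. In complex I, 28 of the 31 had libraries that did not overlap between groups, against 66.3% of all tested genes.

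The catalytic subunit Atp5a1 had 481, 494, 486, 502 and 518 CPM in larvae, against 1642, 1582, 1409, 1432 and 1554 CPM in embryos. Both groups were tight, and the log2 fold change was -1.62 (SE 0.08, adjusted p = 3.73e-08). Uqcrq and cytochrome c1 (Cyc1), both of complex III, stood at -2.12 and -2.0, each with an SE of 0.08. Cyc1 had 88.1 to 102 CPM in larvae and 338 to 405 CPM in embryos. Summed over its 13 genes, ATP synthase held 2307 to 2506 CPM in larvae and 6477 to 7690 CPM in embryos.

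Exceptions among the respiratory genes were few. The complex I subunit Ndufa5 was the only one of its complex called higher, with 57.4, 59.5, 52.3, 62.7 and 61.0 CPM in larvae and 51.0, 49.5, 43.0, 56.0 and 51.2 CPM in embryos. Its libraries overlapped, and its call (log2 fold change 0.22, adjusted p = 0.0281) was lost without embryo 3 alone (0.17, with an adjusted p just above the threshold) and without embryos 1 to 3 (adjusted p = 0.199). Ndufb8 had a log2 fold change of -0.19 (adjusted p = 0.0527) and SdhD, a membrane anchor of complex II, of -0.02 (adjusted p = 0.839). In the reference annotation 20 of the 31 complex I genes overlap another gene. The sources used here give no strand setting for the counting, so reads of overlapping genes may be shared, and this holds for any overlapping gene in the text, among them CPR1, LOC103316648, Atp5a1, Ndufa5, Hex70b and oskar.

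Most tested genes of ligand-gated channels were lower in larvae, as a share of the RNA of the whole animal. Of 16 tested subunits of ligand-gated ion channels (receptors for acetylcholine, GABA, glutamate and related transmitters), 11 were lower, none was higher and 5 did not pass the test. Their median was -0.82, and 39.5% of all tested genes were lower. Of 3 genes of excitable cells 2 were lower. The acetylcholine receptor subunit nAChRa5 had 1.18 to 1.95 CPM in larvae and 20.4 to 26.4 CPM in embryos (log2 fold change -3.91, SE 0.15). The pH-sensitive chloride channel pHCl stood at -2.79. Synaptotagmin 1 (Syt1), the calcium sensor of synaptic vesicles, had 59.4, 67.3, 60.7, 61.1 and 57.5 CPM in larvae and 188, 367, 199, 338 and 329 CPM in embryos (log2 fold change -2.22, SE 0.20, adjusted p = 2.14e-06). Embryos 1 and 3 were the low embryos here and still lay above every larva. Slo, a calcium-activated potassium channel, stood at -2.23 (SE 0.14), whereas the voltage-gated sodium channel Para, with 19.4 to 23 CPM in larvae and 17.3 to 34.3 CPM in embryos, did not pass the test (adjusted p = 0.459).

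Muscle genes were split. The tropomyosin gene Tm1 had 1281, 1653, 1259, 1458 and 3324 CPM in larvae and 3702 to 5709 CPM in embryos, with larva 5 close to the embryos (log2 fold change -1.29, SE 0.28, adjusted p = 0.00167). Tm2, the other tropomyosin gene, was higher at 3.30 (SE 0.15), with 8.35 to 12.7 CPM in larvae and 0.930 to 1.19 CPM in embryos. Zasp66, a Z-disc protein in Drosophila, had 11.8 to 59.2 CPM in larvae and 6.57 to 240.1 CPM in embryos. Its groups overlapped and its adjusted p was 0.0255, a call that was lost when any one of larvae 1 to 4 or of embryos 2 and 4 was left out.

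Some single genes of peptide hormones, among them those of ecdysis, were higher at day 7. Ecdysis-triggering hormone (Eth) starts the shedding of the old cuticle, and bursicon (Burs) hardens and tans the new one. Eth had 5.39, 6.54, 7.38, 5.27 and 9.01 CPM in larvae and 0.505, 0.608, 0.277, 0.369 and 0.731 CPM in embryos (log2 fold change 3.75, SE 0.29, adjusted p = 7.50e-07). Burs had 4.66 to 6.52 CPM in larvae and 0 to 0.0527 CPM in embryos (log2 fold change 8.42, SE 0.61), and its fold change was 9.97 without embryo 3. Eh1 was placed in this list by its symbol alone: it had 245 to 550.0 CPM in larvae and 5.97 to 36.7 CPM in embryos, the top embryo being embryo 3, and its log2 fold change was 4.76, or 5.47 without embryo 3. The clock peptide Pdf stood at 3.39 with under 1 CPM in every library, and ITR, the only member called lower, at -2.68. Of the 9 tested genes of the list, 4 were higher and 1 lower, against 37.2% higher and 39.5% lower over all tested genes. The number higher was thus near the share of all genes. Ecdysone receptor (Ecr) and CYP314A1, which makes the active moulting hormone 20-hydroxyecdysone in other insects, were not called: Ecr had 299 to 347 CPM in larvae and 187 to 389 CPM in embryos, and CYP314A1 had 18.3 to 21.7 CPM in larvae and 11.4 to 22.3 CPM in embryos.

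Enzymes that process food compounds, toxins and hormones were higher more often than lower. Cytochrome P450 enzymes oxidise lipids, hormones and foreign compounds, glutathione transferases (GSTs) couple such compounds to glutathione, and carboxylesterases split esters. Of 36 P450 genes tested, 21 were higher and 6 lower (median 1.67), of 16 GSTs 9 were higher and 3 lower (0.94), and of 11 carboxylesterases 8 were higher and none lower (3.02). The shares over all tested genes were 37.2% higher and 39.5% lower. CYP6CK8 had 65.1, 56.2, 63.7, 58.9 and 52.0 CPM in larvae, against 0, 0, 0.0132, 0 and 0.0266 CPM in embryos (log2 fold change 12.47, and 13.39 without embryo 5). The carboxylesterase CCE-E11 had 41.6, 40.8, 39.7, 40.4 and 40.3 CPM in larvae and 0.0890, 0.101, 0.0791, 0.148 and 0.120 CPM in embryos. The larvae varied little (SD 0.704 CPM, n = 5), and the log2 fold change was 8.54 (SE 0.14, adjusted p = 2.91e-10).

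CYP6AQ5 stood at 7.70 and CYP4G44 at 6.95, where the CYP4G subfamily makes cuticular hydrocarbons in Drosophila. CYP4AB17 was among the 6 lower ones at -4.85, with 1.08 to 1.98 CPM in larvae and 25.8 to 59.6 CPM in embryos. GstT2 stood at 5.72, and GstS8 at 3.13 with 1 embryo apart: it had 139.7 to 161 CPM in larvae and 67.6 CPM in embryo 3, against 1.75 to 7.06 CPM in the other embryos. Without embryo 3 GstS8 stood at 4.99 (adjusted p = 2.09e-06), and DESeq2 gave no adjusted p for it with all libraries. Summed over 43 genes, P450 counts came to 2754 to 3329 CPM in larvae and 556 to 746 CPM in embryos.

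Immune genes included some of the sharpest gains. Defensins are small antibacterial peptides, Imd is the adaptor of the pathway that answers to bacterial cell walls, and prophenoloxidases (ppo) make melanin at wounds and in cuticle. Def1-2 had 129, 107, 128, 142 and 185 CPM in larvae and 0.0148, 0.0169, 0.184, 0 and 0.0133 CPM in embryos (log2 fold change 11.42, SE 0.62, adjusted p = 5.48e-08), or 13.39 without embryo 3. Def1-1 was alike at 11.29, or 12.05 without embryo 3, with larva 5 at 110.5 CPM and the next larva at 50.6 CPM. Imd had 21.9 to 25.4 CPM in larvae and 1.47 to 3.68 CPM in embryos.

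The 2 prophenoloxidase genes of the list went in opposite directions. Ppo3 had 54.6 to 102 CPM in larvae and 1.17 to 1.86 CPM in embryos (log2 fold change 5.83), whereas ppo1 had 0.383 to 2.18 CPM in larvae and 54.6 to 77.5 CPM in embryos (-5.92). Gnbp1-2, a pattern-recognition protein, was lower at -2.84. Of the 7 immune genes tested, 5 were higher and 2 lower (all tested genes: 37.2% higher and 39.5% lower). The larvae had been injected 3 days before collection and the embryos had not, and no uninjected larvae were analysed here.

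Serine proteases and their inactive homologs act in digestion, in clotting and melanin cascades and in development. Of 37 tested, 13 were higher and 19 lower (all tested genes: 37.2% higher and 39.5% lower), with a median of -1.10. SPH103 had 10.5 to 33.0 CPM in larvae and 0.0148 to 0.160 CPM in embryos. SP52 had at most 0.0532 CPM in larvae, against 645, 6.71, 261, 69.5 and 179 CPM in embryos, with embryo 1 highest and embryo 2 lowest as for Osi19 (log2 fold change -12.87, and -12.02 without embryo 1).

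Of 14 tested yellow and royal jelly protein-like genes, named after a Drosophila pigment gene, 3 were higher and 9 lower. Over all tested genes 37.2% were higher and 39.5% lower. With a filter of 1 CPM in 5 libraries, 3 were higher and 6 lower. Y-e had 0.588 to 0.983 CPM in larvae and 115 to 299 CPM in embryos (log2 fold change -8.04, SE 0.35), Y-h stood at -6.78 with larva 5 the highest larva, and at -7.52 without it, and Y-x1c was higher at 4.85.

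Chemoreceptor genes were mostly too low to test: 60 of 214 odorant receptors and 10 of 46 gustatory receptors passed the filter. Of the 60, 25 were higher and 11 lower, where 37.2% of all tested genes were higher and 39.5% lower. The number higher was 40 without embryos 1 to 3, 38 without embryo 1 alone and at least 26 in every fit without 1 library. The number lower was 15 without embryos 1 to 3 and 8 to 16 in the fits without 1 library. The 10 gustatory receptors had 3 higher and 2 lower, and 5 higher without embryo 4. These fits applied the filter anew to fewer libraries, so the receptors tested may differ from these. That was not told apart from the part of the libraries left out. Or261 had 15.7, 14.3, 17.9, 11.9 and 25.2 CPM in larvae and 0.474 to 1.31 CPM in embryos (log2 fold change 4.18, SE 0.31).

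Doublesex (Dsx), the transcription factor at the end of the insect sex-determination cascade and the target of the other arm of the series, was higher in larvae. It had 234, 211, 219, 227 and 212 CPM in larvae and 25.8, 62.4, 34, 47.3 and 39.9 CPM in embryos (log2 fold change 2.40, SE 0.21, adjusted p = 1.69e-06). Transformer (Tra), whose female protein directs the splicing of doublesex, had 128 to 144 CPM in larvae and 124 to 234 CPM in embryos (log2 fold change -0.33, adjusted p = 0.0630), and was called lower without embryo 1 (adjusted p = 0.0391) or without embryo 3 (adjusted p = 0.0108). Fruitless (Fru) had 58.4 to 72.0 CPM in larvae and 51.0 to 72.3 CPM in embryos (log2 fold change 0.16, adjusted p = 0.179, and 0.0493 without embryo 5). These are counts over all isoforms of a gene, so the sex-specific splice forms are not seen.

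Noncoding RNA genes were tested in smaller numbers. Of 363 long noncoding RNA genes, 118 (32.5%) were higher and 105 (28.9%) lower, both under the shares of all tested genes (37.2% and 39.5%). Of 9 small nucleolar RNA genes, which guide the chemical modification of ribosomal RNA, 8 were lower with a median of -3.19. Of 14 ribosomal RNA genes tested, 13 were higher with a median of 3.37, although all annotated ribosomal RNA genes took only 0.0012 to 0.00167% of counts in larvae and 0.000204 to 0.000337% in embryos. The part of ribosomal RNA in other results was not tested. Translation elongation factor EF-1a had 3036 to 3513 CPM in larvae and 7975 to 10551 CPM in embryos (log2 fold change -1.54, SE 0.12). LOC100117792, which has no descriptive name, lost the largest share of the library, with 0.0592% ± 0.0361 of counts in larvae and 1.73% ± 0.209 in embryos (SD, n = 5 each).

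Levels of these genes were also followed into the later stages of GFP control females (on a scale shared by all 140 libraries). Of the 728 genes at least 8-fold higher in larvae, 280 (38.5%) had their highest mean at day 7 among the 7 stages and tissues, and 107 had it at day 9. Of the 857 genes at least 8-fold lower, 484 (56.5%) had their highest mean in the embryo and the others had it at a later stage. Both sets were chosen by their day 7 and embryo values, which favours a peak at the chosen stage. Shares over all tested genes were not computed, so these percentages only describe the 2 sets. LOC103316648 averaged 0 CPM in embryos, 13959.8 CPM at day 7, 1.81 CPM at day 9, 0.198 CPM in day 11 pupae and at most 0.0245 CPM in the adult head, thorax and abdomen. CPR1 followed the same course, with 21.4 CPM in embryos, 17309 CPM at day 7 and 14 CPM at day 9.

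Hex70b had not yet peaked at day 7: it averaged 1.15 CPM in embryos, 745 CPM at day 7, 11816 CPM at day 9 and 7.52 CPM in pupae. Among the genes lower at day 7, CPR40 averaged 2019 CPM in embryos and at most 2.25 CPM at any later stage. Atp5a1 was lowest at day 7 and highest in the pupa, at 1576 CPM in embryos, 499 CPM at day 7, 1228 CPM at day 9 and 6927 CPM in pupae. Syt1 reached its highest mean in the adult head, at 1074 CPM.

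**Figure D4:**
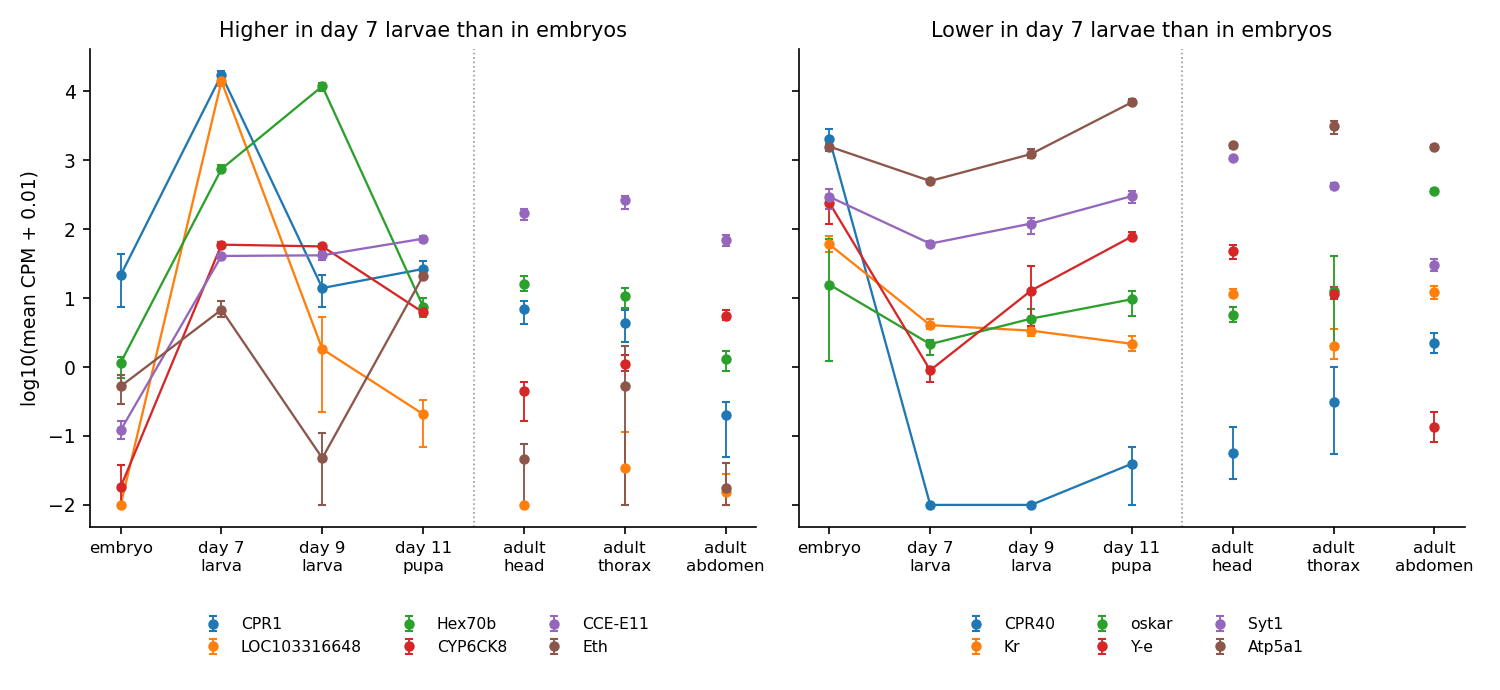
Mean level of 12 genes in GFP control females over 7 stages and tissues (log10 of CPM plus 0.01, bars from the lowest to the highest of 5 libraries). LOC103316648 and CPR1 are high at day 7 alone, Hex70b is highest at day 9, CPR40 is an embryo gene, and Atp5a1 is lowest at day 7.

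The same comparison in GFP control males, whose embryos came from unmated mothers and share no library with the females, was used as a repeat. It called 9492 of 12020 genes (79.0%). Of the 1539 genes called at least 8-fold in females and tested in both sexes, 1229 (79.9%) were called at least 8-fold in the same direction in males, where 1530 genes passed, and 4 in the opposite direction. Over all genes tested in males, 8.00% were at least 8-fold higher and 7.24% at least 8-fold lower. In females labelled for dsx dsRNA, 9620 of 11682 genes (82.3%) were called, and 1383 of 1554 genes at least 8-fold (89.0%) passed there in the same direction. Over all genes tested there, 6.37% were at least 8-fold higher and 8.27% at least 8-fold lower.

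The respiratory genes repeated in males: 31 of 31 complex I genes, 8 of 8 of complex III and 13 of 13 of ATP synthase were lower, with medians of -1.10, -2.02 and -1.74, where 40.5% of all tested genes were lower. CPR1 stood at 9.35, Hex70b at 9.13, Kr at -3.55 and Def1-2 at 11.80 in males.

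The change from embryo to larva differed between females and males in 1035 of 12422 genes (8.33%) by a test of the difference itself (edgeR's quasi-likelihood test of the stage by sex interaction). The female change was the more positive in 251 genes (2.02%) and the more negative in 784 (6.31%). The number more positive was unsteady: it was 470 without female embryo 1, 429 without female embryo 2 and 382 without male embryo 5. Without scaling factors for library composition the split was 153 more positive and 990 more negative.

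Hb and oskar were among these genes. Oskar averaged 2.14 CPM in larvae and 15.6 CPM in embryos of females, and 19.6 CPM in larvae and 1.97 CPM in embryos of males, a difference of -6.21 between the log2 fold changes (adjusted p = 0.00261). The female embryo mean again rests on embryo 3, but the larvae alone differed by sex, at 1.48 to 2.42 CPM in females and 18.6 to 20.3 CPM in males.

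Hb averaged 0.129 CPM in larvae and 17.8 CPM in embryos of females, and 1.52 CPM in larvae and 11.1 CPM in embryos of males (difference -4.24, adjusted p = 2.25e-05). Y-e averaged 0.887 CPM in larvae and 240.1 CPM in embryos of females, and 6.28 CPM in larvae and 242.9 CPM in embryos of males (difference -2.81, adjusted p = 0.00168). CCE-E11 averaged 40.8 CPM in larvae and 0.111 CPM in embryos of females, and 24.4 CPM in larvae and 0.287 CPM in embryos of males (difference 2.10, adjusted p = 3.70e-05). LOC100123639 had the widest gap among the named genes, at a log2 fold change of -13.90 in females and -6.40 in males.

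**Figure D5:**
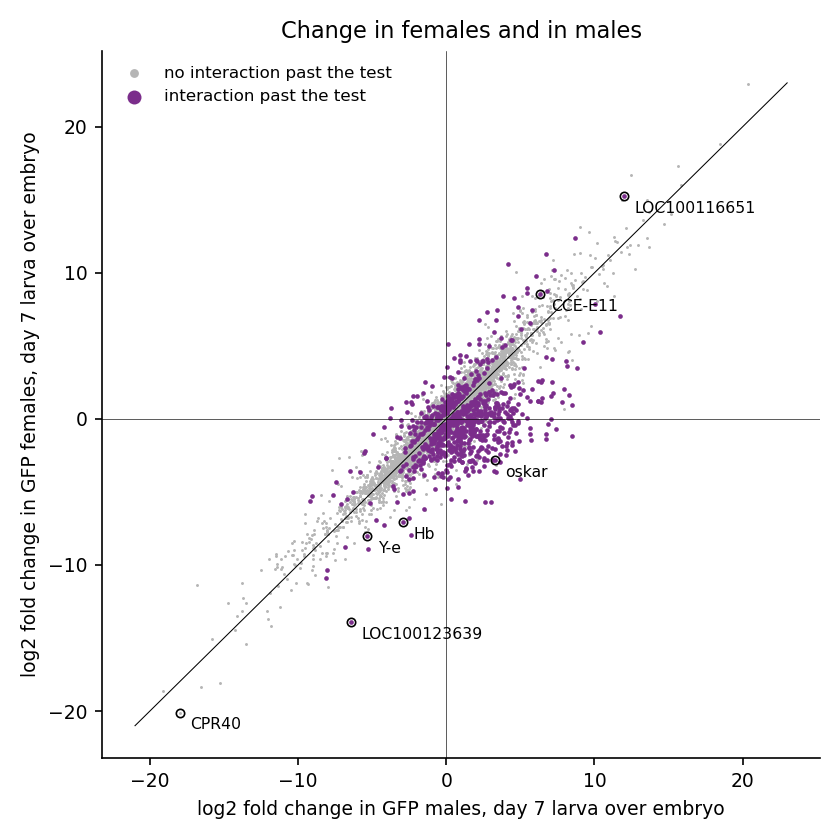
Log2 fold change of day 7 larvae over embryos in GFP control females (y axis) against GFP control males (x axis), 1 point a gene. Most genes lie along the diagonal, and genes with a stage by sex interaction, Hb and oskar among them, are drawn in purple.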

How the data were processed

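The authors deposited whole-number read counts per gene for 140 libraries of total RNA. The submitters' processing notes name HISAT2 2.0.5 and HTSeq 0.6.1; the genome build and strand setting were not given in the sources used here. Libraries were assigned to groups by their labels.

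Counts were tested with edgeR 4.0.16 (R 4.3.3): genes kept by filterByExpr with a minimum count of 10, TMM scaling, quasi-likelihood fits over 10 libraries, and Benjamini-Hochberg adjustment over all tested genes with a threshold of 0.05. Males and females labelled for dsx dsRNA were fitted likewise, and the difference between sexes as an interaction over 20 libraries. Levels are counts per 1000000 (CPM) after TMM scaling, and shares are percent of assigned counts. Gene lengths were not used, so sums and shares are of counts, and levels of single genes are not ranked against each other. Folds against a group without counts set that group to 3 counts in all. Each SE is the absolute log2 fold change divided by the square root of the quasi-likelihood test's F statistic. It was thus derived from the test and is no separate measure of error. DESeq2 1.42.0 was an alternative. The procedure was tested on simulated data in which few genes changed. That test does not cover a comparison in which most genes are called.

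The members and lists were chosen with earlier results of these data known. Of the 15471 gene symbols, 14799 matched RefSeq's table for assembly Nvit_psr_1.1 exactly, 197 after a copy number was dropped and 475 not at all; only 882 have a name other than LOC and a number. That table gives symbols without descriptions, so the lists were built from symbols. Genes were named by rule: the 8 largest changes each way without overlap at 50 CPM or more, the 6 largest gains and losses in share, the 2 largest changes each way of each list at 10 CPM or more, and Dsx, Tra and Fru. Other list members in the text were chosen after their values were seen.

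Larvae and embryos with the same replicate number did not deviate together (correlations -0.01 to 0.07), so the numbers were not taken to pair them. No 2 libraries agreed within sampling noise. No sequence or coordinate was used here.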

Additional observations from a re-analysis of the deposited data

Results flagged for a closer look

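Single libraries stood apart from the other 4 of their group in several of the named genes. A gap this wide arises by chance in about 1 in 20 groups, and the genes share libraries, so the values are not independent of each other.

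Larva 5 accounted for most of the larval cases. It was highest for LOC100117792 (1256 CPM), LOC100123633 (591 CPM), LOC100122977 (420.3 CPM), LOC100115182 (248 CPM), TWDL1 (49.7 CPM), CPR14 (3656 CPM), Osi7 (2.52 CPM), Y-h (6.71 CPM), Zasp66 (59.2 CPM), Tm1 (3324 CPM) and Def1-1 (110.5 CPM), and lowest for Emc (109 CPM). For all of these but CPR14, Def1-1 and Emc the embryo mean was the higher one, and for Emc larva 5 was likewise nearest to the embryos. Other larvae stood apart in 3 genes: larva 4 was highest for EF-1a (3513 CPM) and lowest for Ndufb6 (20.3 CPM), and larva 3 was lowest for oskar (1.48 CPM).

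Embryo 3 was highest for oskar (68.9 CPM), Hb (43.0 CPM), GstS8 (67.6 CPM), Eh1 (36.7 CPM), Smc2 (25.2 CPM) and Mus201 (15.8 CPM), and lowest for Cox6a1 (162 CPM). Embryo 2 was highest for LOC100117792 (22733 CPM) and LOC100115182 (7426 CPM). Embryo 1 was highest for Ptc (49.0 CPM) and lowest for GstT2 (0.430 CPM).

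Among the 91 genes named by rule, 9 differed between the sexes in their change from embryo to day 7 larva by the interaction test. That count was near the 8.33% of all genes in that test, so it says little about the named genes as a set. The female minus male difference in log2 fold change was -7.59 for LOC100123639, -6.21 for oskar, -4.24 for Hb, -2.81 for Y-e and -0.31 for SdhC. It was 3.19 for LOC100116651, 2.10 for CCE-E11, 0.67 for Fru and 0.54 for Ndufa5. Female embryo pools held some males, and their part in these differences was not tested.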

How the results depend on the processing

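The number of genes called between female larvae and embryos was 8035 to 9487 under other scaling, filters, tools and fits, 8577 to 9137 when 1 library was left out, and 9293 without embryos 1 to 3, an alternative chosen after seeing the data. With the replicate block it was 8570. The block took the call from oskar (-0.36, adjusted p = 0.754), Zasp66 (adjusted p = 0.0749) and 16 other list members, Osi8 among them (adjusted p = 0.122); not every embryo correlated best with the larva of its own number. Between the sexes, the count of genes with a more positive female change was 153 without scaling factors, 411 in the fit with both dsRNA labels, 519 with DESeq2 and 222 to 470 when 1 library was left out. Of these, the count at least 2-fold was 236 with DESeq2, and the count at least 8-fold was 27 with a filter of 1 CPM in 5 libraries. The cause was not tested. Directions reversed for oskar, to 0.24 without embryo 3 (-3.24 to 0.24 over the libraries left out) and 0.25 without embryos 1 to 3, and for Fru, to -0.022 without embryos 1 to 3, and none of these was called. Of the odorant receptors, 52 were called higher and 31 lower without a filter, and 12 higher and 4 lower with the stricter one. Their median log2 fold change was 0.91 in the main fit, 0.20 without a filter and 1.57 with the stricter one. The planned search for promoter motifs was not run, since no sequences were used here. Low counts limit what can be said of the chemoreceptors: 154 of 214 odorant receptors were too low to test.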
